A study of Mus musculus with 16 samples.

Results

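The 10 genes described here belong to the p53 response and to the machinery that holds cells out of the division cycle. They are Trp53, Mdm2, Cdkn1a, Cdkn1b, Cdkn2d, Btg1, Btg2, Gadd45a, Gadd45b and Ccng2, and they were found by symbol among the 49315 genes of the count files, all 10 of them. They were chosen by name, starting from Cdkn1a because its levels were very uneven among the lung libraries, so the lung values of Cdkn1a, and the lung comparison of genotypes at 12 hours for all 10 genes, are given as a description, from which no test result is drawn. Other comparisons that use the lung 12 hour libraries share libraries with that one, so their results are not independent of the choice of genes. Neutrophils (sorted on Ly6G+/CD11b+/CD45.2+) were taken for RNA sequencing from blood and lung of WT mice and of αD KO mice, which carry a knockout of integrin αD (CD11d, gene Itgad). Within each genotype and tissue, the 0h group was untreated (naïve) and the other group was taken 12 hours after cecal ligation and puncture (CLP), a surgical model of polymicrobial abdominal sepsis. The operated mice were male and 8 to 12 weeks old. No promoter or cell type is named for the knockout, no sham operation is among the labels (so surgery and infection cannot be told apart), and the number of animals behind a library is not given. The 8 groups had 3 count files each, from 2 samples per group. Sample 1 gave libraries 1a and 1b, and sample 2 gave library 2.

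The labels give 2 samples per group, and in the main test the 3 files of a group entered as separate libraries, so n = 3 below counts libraries and not samples. The counts of 1a and 1b differed by more than counting noise in each group (chi-square over its degrees of freedom 63.5 to 328, beside 43.8 to 284 for 1a and 2), which does not tell separate animals from separate preparations of the same material and does not make them separate samples. If both came from the same animal the p-values are too small, so the results with the files of sample 1 summed (n = 2) are given beside the calls. In 6 of the 8 groups these files carry the same column name, and the study describes its sequencing as done in triplicate without saying whether these were separate animals, so the p-values below measure the spread between libraries, which may be technical. The 8 libraries 1b held 5753476 to 17976890 counts and 29162 to 38844 genes with counts, against 16565779 to 29984954 counts and 17132 to 32666 genes in the other 16 libraries. The neutrophil genes S100a8 (11208 to 87597 CPM, counts scaled to a common library size after TMM normalization) and Csf3r (890.4 to 13025 CPM) were high in all 24 libraries. Among the genes of the sort, Ly6g was lower, at 23.3 to 574 CPM, with Itgam (CD11b) at 227 to 1330 CPM and Ptprc (CD45) at 583 to 4912 CPM. Ly6g also moved with time, from 23.3 to 72.9 CPM at 0h to 174 to 197 CPM at 12 hours in WT blood. In WT lung it was at 25.6 to 51.6 and 93.9 to 574 CPM, and in αD KO the times overlapped in both tissues. Itgad was at 0.0522 to 4.08 CPM in the 12 WT libraries and at 12.6 to 96.1 CPM in the 12 libraries labelled αD KO. Its RNA was therefore higher, not lower, under the knockout label, the counts do not show which exons it came from, and every direction between genotypes below rests on the labels.

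Some lung libraries stood apart from their group. On a scale set by 1338 genes called between WT lung at 0h and 12 hours (members left out), where 0 is the WT 0h mean and 1 the WT 12 hour mean, the WT 0h libraries had -0.05, 0.12 and -0.03 and the WT 12 hour libraries 1.19, 0.70 and 1.04 (libraries 1a, 1b and 2, the order used throughout). To place a WT library, its own values were left out of its group mean. The genes were called between these same WT libraries, so the distance between the WT groups follows from the choice of genes. Those labelled αD KO had 0.15, 0.11 and 1.02 for 0h and 0.10, 0.85 and 0.18 for 12 hours. Library 2 of αD KO lung at 0h was thus placed with the WT 12 hour libraries, and libraries 1a and 2 of αD KO lung at 12 hours were placed near the baseline. Whether the time labels of these αD KO lung libraries are right was not tested, and every αD KO lung value is given by its label. For the genes that the lung comparisons turn on, values are also given without αD KO lung 0h library 2, αD KO lung 12 hours library 1b or WT lung 12 hours library 1b.

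As background, p53 is a transcription factor that is held low by the ubiquitin ligase Mdm2 and that, when DNA is damaged or cells are stressed, switches on genes that stop the cell cycle, repair DNA or start cell death. Neutrophils leave the bone marrow as cells that no longer divide and are short-lived, and several of these genes are also switched on by cytokines and stress signals without p53. Trp53 (ENSMUSG00000059552, chr11:69580359-69591873, plus strand, GRCm38) encodes p53, and Mdm2 (ENSMUSG00000020184, chr10:117688888-117710758, minus strand) encodes its inhibitor, itself a p53 target. Cdkn1a (ENSMUSG00000023067, chr17:29090979-29100722, plus strand) encodes p21, the inhibitor of cyclin-dependent kinases through which p53 stops the cell cycle. Cdkn1b (ENSMUSG00000003031, chr6:134920401-134925513, plus strand) encodes the related inhibitor p27. Cdkn2d (ENSMUSG00000096472, chr9:21288410-21291407, minus strand) encodes p19, an inhibitor of the kinases that act with D-type cyclins.

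Btg1 (ENSMUSG00000036478, chr10:96617001-96622813, plus strand) and Btg2 (ENSMUSG00000020423, chr1:134075170-134079120, minus strand) encode antiproliferative proteins that promote shortening of messenger RNA tails, and Btg2 is also a p53 target. Gadd45a (ENSMUSG00000036390, chr6:67035096-67037457, minus strand) and Gadd45b (ENSMUSG00000015312, chr10:80930091-80932204, plus strand) encode stress proteins that are induced by DNA damage or by inflammatory signals and act on stress kinases. Ccng2 (ENSMUSG00000029385, chr5:93267257-93276231, plus strand) encodes cyclin G2, an unusual cyclin that restrains the cycle. All 10 are protein coding. Exons of Gadd45a overlap those of the antisense gene E230016M11Rik, and since the strand setting of the counting was not stated, reads of the pair cannot be told apart.

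Corrected for exonic length, Btg2 and Btg1 were the highest of the 10 genes in WT blood at 0h, at 578 ± 169 and 452 ± 169 CPM per kb (mean ± SD, n = 3), and their libraries overlapped. Cdkn2d, Gadd45b and Gadd45a followed at 130.1 ± 46.6, 112 ± 50.04 and 94.6 ± 41.6 CPM per kb. Every library of Btg1 was above every library of Cdkn2d, and from there down each gene overlapped its neighbour. Ccng2, Mdm2, Cdkn1b and Cdkn1a had 34.3 ± 13.0, 22.5 ± 6.40, 15.2 ± 2.35 and 11.9 ± 8.76 CPM per kb, and Trp53 was lowest at 4.20 ± 0.745. At 12 hours in WT blood the order had changed, with Cdkn2d first at 359 ± 91.5, above Btg2 at 181 ± 27.6 and Btg1 at 64.7 ± 15.6 CPM per kb, and with no overlap between these neighbours. Trp53 had the lowest mean in all 8 groups.

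Over the 24 libraries, Cdkn1a had the widest range, from 3.18 CPM in αD KO blood 0h library 1b to 1139.8 CPM in WT lung 12 hours library 2, a 359-fold span. Gadd45b followed with a 46.9-fold span, Btg1 with 12.6-fold and Btg2 with 11.2-fold. The other 6 genes spanned 5.16-fold (Ccng2) to 8.81-fold (Trp53). The lowest raw count was 34, for Cdkn1a in WT blood 0h library 1b, and all 10 passed the filter on low counts in every comparison.

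**Figure D1:**
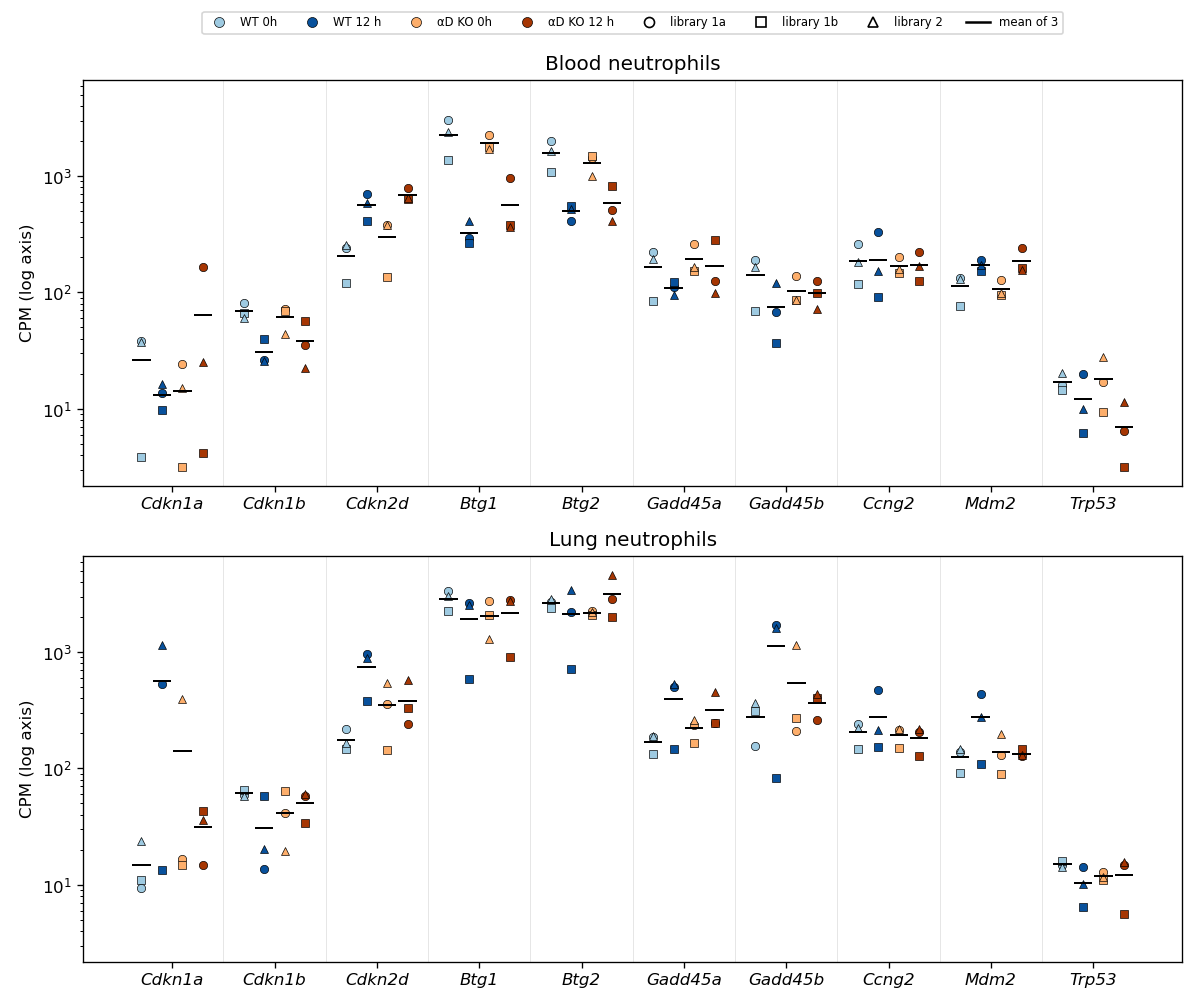
Level of the 10 genes in every blood (top) and lung (bottom) library, as CPM on a log axis, with circles for library 1a, squares for 1b, triangles for 2, colours for the 4 groups of a tissue and bars for the mean of 3 libraries. Btg1 and Btg2 in blood lie lower at 12 hours than at 0h in both genotypes, and Cdkn1a in lung is at 396 to 1139.8 CPM in 3 libraries (WT 12 hours 1a and 2, αD KO 0h 2) and at 9.36 to 42.8 CPM in the other 9.

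The first question was which of these genes changed in circulating neutrophils of WT mice after CLP. Btg1, Btg2 and Cdkn1b fell, and no gene of the 10 rose past the test. Btg1 had 3053, 1369.7 and 2375 CPM at 0h and 295, 265 and 412 CPM at 12 hours. All 3 libraries at 12 hours were below all 3 at 0h, and the mean was 6.99-fold lower (log2 fold change -2.86, SE 0.46, adjusted p 0.0089). Btg2 had 2012, 1094 and 1651 CPM at 0h and 413, 558 and 522 CPM at 12 hours, again without overlap, and the log2 fold change was -1.72 (SE 0.39, adjusted p 0.0277). Cdkn1b had 81.1, 66.6 and 60.2 CPM at 0h and 26.3, 40.0 and 25.8 CPM at 12 hours, without overlap, with a log2 fold change of -1.22 (SE 0.29, adjusted p 0.0330).

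A call required a Benjamini-Hochberg adjusted p under 0.05 over all genes tested, from edgeR's quasi-likelihood F test, and an absolute log2 fold change over 1. In WT blood 3 of 10 genes were called, all lower, where 13.5% of 14625 genes were called and 5.75% were called lower. The groups did not overlap for 5 of the 10 genes, beside 38.0% of all genes, and the median log2 fold change of the 10 was -0.82, beside -0.15 over all genes. Cdkn2d stood the other way, at 241, 120.4 and 253 CPM at 0h and 699, 413 and 582 CPM at 12 hours. Its groups did not overlap but it missed the threshold (log2 fold change 1.40, SE 0.41, adjusted p 0.0596), and it passed with the library number as a block (adjusted p 0.0170), by DESeq2, with RLE normalization and with the files of sample 1 summed. Mdm2 had 134, 76.5 and 131 CPM at 0h and 191, 152 and 171 CPM at 12 hours, also without overlap, and was not called (log2 fold change 0.53, SE 0.32, adjusted p 0.32).

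Cdkn1a was low and uneven in WT blood, at 38.1, 3.87 and 37.1 CPM at 0h and 13.8, 9.70 and 16.2 CPM at 12 hours. The 12 hour libraries all lay between library 1b and the other two at 0h, and the log2 fold change of -1.07 (SE 0.71, adjusted p 0.37) was not called. Gadd45a, Gadd45b, Ccng2 and Trp53 had overlapping groups, with log2 fold changes between -0.98 (Gadd45b) and -0.04 (Ccng2) and adjusted p values of 0.27 to 0.97. All 3 calls held with the files of sample 1 summed (adjusted p 0.0032 for Btg1, 0.0042 for Btg2 and 0.0225 for Cdkn1b). They depended on which library entered: with any of the libraries 1a or 2 of either time left out, none of the 10 genes was called (nor more than 150 genes of the whole table), and with 0h library 1b left out 5 were, where 18.4% of 15279 genes were called. Cdkn1a was among those 5, called lower without 0h library 1b, and it was also called lower with the files of sample 1 summed (log2 fold change -1.18, adjusted p 0.0347) and without all libraries 1b (log2 fold change -1.42, adjusted p 0.0097). Without all libraries 1b Gadd45a was called lower as well (log2 fold change -1.11, adjusted p 0.0183), and 23.1% of 13839 genes were called.

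Markers of other cells moved with time in blood. The summed CPM of 8 B cell markers ranged from 339 to 1198 at 0h and from 45.1 to 243 at 12 hours in WT, and from 371 to 1491 and from 39.1 to 126 in αD KO, with counts for all 8 markers in each group. Over 10 T and NK cell markers the sums were 26.1 to 30.9 at 0h and 15.4 to 16.1 at 12 hours in WT blood, and 19.8 to 368 and 10.3 to 16.6 in αD KO blood. Those of 6 platelet markers were 51.6 to 131 and 4.62 to 26.9 in WT, and 28.5 to 654 and 5.67 to 37.8, with overlap, in αD KO. The 12 monocyte and macrophage markers summed to 704 to 1550.3 at 0h and 662 to 1061 at 12 hours, with overlap, in WT, and to 865 to 1920.0 and 549.7 to 744 in αD KO. The 12 markers of proliferating cells summed to 66.5 to 79.5 and 38.5 to 51.6 in WT, and to 46.9 to 154 and 22.4 to 52.0, with overlap, in αD KO. Sums of 11 lung structural markers were 24.7 to 297 (297 in library 2) at 0h and 18.7 to 21.1 at 12 hours in WT blood, without overlap. They were 25.4 to 36.3 and 10.3 to 25.9 in αD KO blood, with overlap. Sums of 7 erythroid markers overlapped in both genotypes, at 250 to 3670 and 341 to 2141 in WT and 1741.5 to 8878 and 23.6 to 5921 in αD KO. The 9 neutrophil markers summed to 37805 to 49875 CPM at 0h in WT blood and to 117624 to 185118 CPM at 12 hours, and to 40957 to 59267 and 97930 to 145523 CPM in αD KO blood. The genes of this list moved in both directions. S100a8 was at 11208 to 14003 CPM at 0h and 46229 to 87597 CPM at 12 hours in WT blood, while Csf3r was at 5489.6 to 10776 CPM at 0h and 1107 to 2276 CPM at 12 hours in WT blood and at 5243 to 9892 and 890.4 to 1794 CPM in αD KO blood, both without overlap. The part of these shifts in the falls of Btg1, Btg2 and Cdkn1b was not tested. In bulk RNA such as this, fewer cells of a type and less RNA per cell cannot be told apart.

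In αD KO blood, Btg1 alone passed the test, and it fell. Its libraries had 2267, 1795 and 1711 CPM at 0h and 961, 379 and 366 CPM at 12 hours, without overlap, and the log2 fold change was -1.81 (SE 0.44, adjusted p 0.0411). Btg2, at 1423, 1486 and 993 CPM at 0h and 510.3, 827 and 413 CPM at 12 hours, did not overlap between the times and was not called by edgeR (log2 fold change -1.22, SE 0.36, adjusted p 0.0710), while DESeq2 called it (adjusted p 0.0288). Cdkn2d had 381, 136 and 380.0 CPM at 0h and 788, 635 and 651 CPM at 12 hours, all higher at 12 hours, and was not called by edgeR (log2 fold change 1.18, SE 0.38, adjusted p 0.0913), while DESeq2 called it (adjusted p 0.0248). Mdm2 had 127, 94.6 and 99.1 CPM at 0h and 242, 162 and 157 CPM at 12 hours, without overlap (log2 fold change 0.76, SE 0.28, adjusted p 0.13). Thus 1 of 10 genes was called, where 8.75% of 14156 genes were called and 4.99% were called lower, and the groups of 4 of 10 did not overlap, beside 33.3% of all genes. Cdkn1b had 71.5, 69.9 and 43.6 CPM at 0h and 35.3, 57.2 and 22.5 CPM at 12 hours, with overlap (log2 fold change -0.75, SE 0.40, adjusted p 0.26).

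Cdkn1a in αD KO blood had 24.2, 3.18 and 15.0 CPM at 0h and 164, 4.14 and 25.2 CPM at 12 hours. The mean at 12 hours was set by library 1a, the highest of all 12 blood libraries, while library 1b was within the 0h range. The log2 fold change of 2.18 (SE 1.15, adjusted p 0.26) became 0.08 (SE 0.95, adjusted p 0.98) without that library. Btg1 was still called without it (log2 fold change -2.40, SE 0.36, adjusted p 0.0340), but its call was lost without any other of the 6 libraries. Only 2 samples per group stand behind these libraries, and the Btg1 call was also lost with the files of sample 1 summed (adjusted p 0.0773) and without all libraries 1b (adjusted p 0.0734). Btg2 was called in its place without libraries 1b (adjusted p 0.0312, with 1558 of 14178 genes called) and without 12 hours library 1b alone (log2 fold change -1.50, SE 0.32, adjusted p 0.0353). Trp53 had 17.0, 9.45 and 27.7 CPM at 0h and 6.42, 3.15 and 11.5 CPM at 12 hours, with overlap, and was not called (log2 fold change -1.40, SE 0.56, adjusted p 0.15). The remaining genes, Gadd45a, Gadd45b and Ccng2, had log2 fold changes of -0.25, -0.11 and -0.02. Their groups overlapped and none was called, so no direction is read from these values.

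Whether the change in blood differed between the genotypes was tested as an interaction. None of the 10 genes passed (adjusted p 1.00 for each), where 0.0% of 19792 genes passed (232 had an unadjusted p under 0.05, and 1 passed by DESeq2). The difference of the log2 fold changes, αD KO minus WT, was 1.21 (SE 0.76) for Btg1, 0.69 (SE 0.63) for Btg2, 0.61 (SE 0.57) for Cdkn1b and -0.13 (SE 0.76) for Cdkn2d. For Cdkn1a it was 3.34 (SE 1.64), with the smallest unadjusted p of the 10 (0.0626), and without αD KO 12 hours library 1a it was 1.11 (SE 1.37). Without that library the difference was 0.40 (SE 0.71) for Btg1 and -0.43 (SE 0.79) for Cdkn2d.

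**Figure D2:**
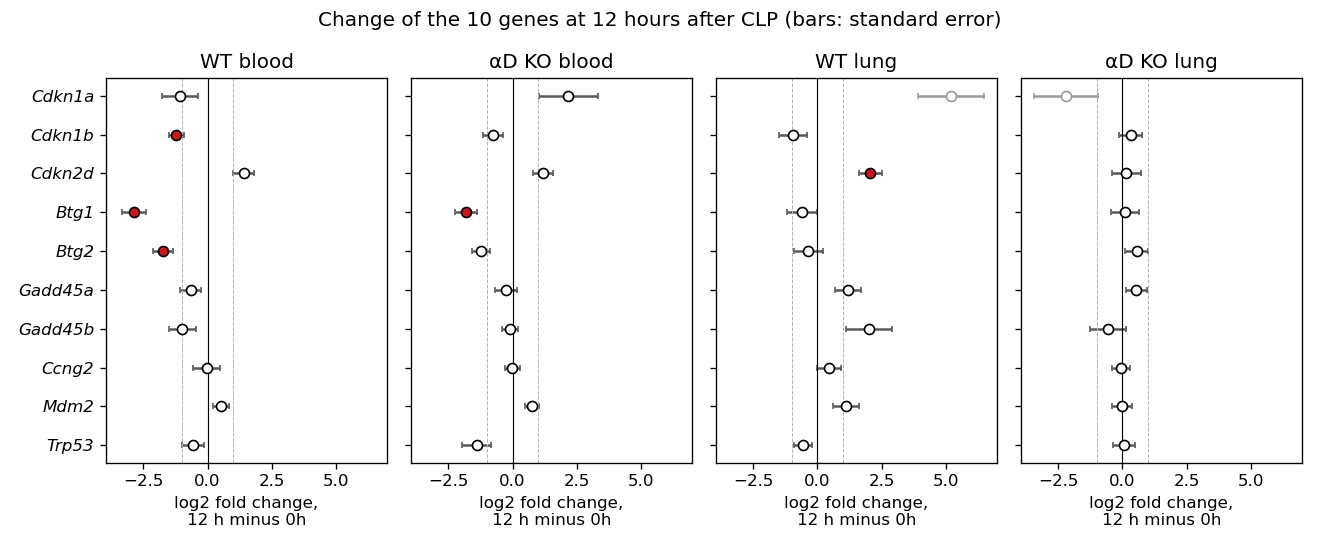
Fitted log2 fold change, 12 hours minus 0h, of the 10 genes in each tissue and genotype, with bars for the standard error and filled points for genes that passed the test (dashed lines at 1 and -1). Grey open points, for Cdkn1a in lung, are a description from which no test result is drawn. Filled points are Cdkn1b, Btg1 and Btg2 in WT blood, Btg1 in αD KO blood and Cdkn2d in WT lung, and none is in αD KO lung.

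The promoters of the 4 genes called in a comparison are shown so that the genes that fell together in WT blood (Btg1, Btg2 and Cdkn1b) can be set beside Cdkn2d, which stood the other way. Each is the RefSeq window from 250 bases before to 50 after the start of the gene (GRCm38.p6), 5′ to 3′ along the gene. Capitals mark matches, on either strand, to the p53 half-site (its 10-base consensus), the CRE half-site TGACG, the AP-1 site TGANTCA, the FoxO site GTAAACA, the TATA box TATAAA, the CCAAT box CCAAT, the GC box GGGCGG and the E-box CACGTG.
Btg1, chr10:96616751-96617050, plus strand: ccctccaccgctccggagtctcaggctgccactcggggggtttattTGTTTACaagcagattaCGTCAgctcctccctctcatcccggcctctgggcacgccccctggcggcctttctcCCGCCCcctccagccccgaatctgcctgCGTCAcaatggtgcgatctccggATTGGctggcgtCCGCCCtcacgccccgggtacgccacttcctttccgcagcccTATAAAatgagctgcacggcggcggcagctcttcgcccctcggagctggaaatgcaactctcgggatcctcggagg
Btg2, chr1:134079106-134079405, minus strand: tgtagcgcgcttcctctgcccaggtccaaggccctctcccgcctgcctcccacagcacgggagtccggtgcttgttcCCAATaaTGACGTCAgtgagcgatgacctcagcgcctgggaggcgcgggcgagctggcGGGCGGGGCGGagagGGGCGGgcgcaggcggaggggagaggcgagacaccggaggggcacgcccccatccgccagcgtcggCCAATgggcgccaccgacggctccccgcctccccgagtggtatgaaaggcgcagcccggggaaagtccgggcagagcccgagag
Cdkn1b, chr6:134920151-134920450, plus strand: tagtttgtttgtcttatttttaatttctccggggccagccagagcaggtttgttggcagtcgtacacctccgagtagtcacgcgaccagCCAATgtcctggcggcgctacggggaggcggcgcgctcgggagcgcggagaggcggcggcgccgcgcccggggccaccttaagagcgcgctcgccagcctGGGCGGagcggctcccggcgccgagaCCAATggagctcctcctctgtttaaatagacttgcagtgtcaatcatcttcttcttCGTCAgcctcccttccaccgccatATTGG
Cdkn2d, chr9:21291160-21291459, minus strand: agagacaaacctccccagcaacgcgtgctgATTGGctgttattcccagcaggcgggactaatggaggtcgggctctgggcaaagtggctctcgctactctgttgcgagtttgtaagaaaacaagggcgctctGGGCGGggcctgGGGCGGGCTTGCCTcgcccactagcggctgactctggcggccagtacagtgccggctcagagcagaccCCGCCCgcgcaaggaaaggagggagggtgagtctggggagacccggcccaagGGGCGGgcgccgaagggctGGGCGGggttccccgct

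All 10 genes matched the RefSeq table, with 11 promoters, since Cdkn1a has more than 1. The CRE half-site is in the windows of Btg1 (at positions -187 and -103 from the start), Btg2, Cdkn1b and Mdm2, that is in 4 of 11, and in 20.8% of 32851 promoters. In Btg2 the matches at -166 and -163 overlap as a full palindrome. The TATA box is in 3 of the 11 windows, in Btg1 at -26, and in 13.6% of all, and the CCAAT box is in 8 of 11 and in 37.4%. The GC box is in 9 of 11 windows and in 35.7%, with 5 matches in Cdkn2d, one of which shares bases with the p53 half-site at -102. FoxO sites are in 2 of 11 windows and 3.65% of all, E-boxes in 2 and 7.15%, and the AP-1 letters in none of the 11 and 7.81%. A match describes letters in this window and says nothing of binding.

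In WT lung neutrophils, Cdkn2d rose and Cdkn1a showed the widest gap between libraries of a group. Cdkn1a had 9.36, 10.9 and 23.95 CPM at 0h, and 529.6, 13.4 and 1139.8 CPM at 12 hours. Libraries 1a and 2 were far above every 0h library, while library 1b was within the 0h range. The group means were 14.7 ± 8.01 CPM and 561 ± 564 CPM (SD, n = 3), a 38.1-fold ratio with an SD as large as the mean at 12 hours. Without library 1b at 12 hours the fitted log2 difference was 5.67 (SE 0.54), and with it 5.20 (SE 1.29), while without library 2 at 12 hours, the highest, it was 4.04 (SE 1.30).

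Cdkn2d had 219, 146 and 164 CPM at 0h and 956, 377 and 894 CPM at 12 hours. All 3 libraries at 12 hours were above all 3 at 0h, library 1b by the least, and the log2 fold change was 2.05 (SE 0.45, adjusted p 0.0307). It was also called with the files of sample 1 summed, and with all libraries it was the only one of the 9 genes tested to be called, where 9.02% of 14859 genes were called and 5.24% were called higher. The WT 12 hour libraries also entered the comparison by which the genes were chosen. The Cdkn2d call is therefore not independent of that choice. Without library 1b at 12 hours the change was 2.24 (SE 0.27, adjusted p 0.0013). Without any other of the 6 libraries none of the 9 was called, and 0 to 769 genes of the whole table were.

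Library 1b at 12 hours also stood apart from 1a and 2 for several other genes in WT lung. Gadd45b had 155, 309 and 366 CPM at 0h and 1706, 83.0 and 1595 CPM at 12 hours. At 12 hours libraries 1a and 2 were above and library 1b below every 0h library, and the log2 fold change was 2.00 (SE 0.90, adjusted p 0.20). Gadd45a had 187, 132 and 190.2 CPM at 0h and 502, 146 and 531 CPM at 12 hours (log2 fold change 1.18, SE 0.49, adjusted p 0.17). Mdm2 had 138, 90.7 and 146 CPM at 0h and 437, 109.8 and 276 CPM at 12 hours (log2 fold change 1.11, SE 0.50, adjusted p 0.20). Without 12 hours library 1a the Mdm2 change was 0.46 (SE 0.53), and without 12 hours library 2 that of Gadd45a was 0.75 (SE 0.61). For Gadd45a and Mdm2, libraries 1a and 2 at 12 hours were above every 0h library and library 1b was within the 0h range. Cdkn1b had 59.1, 65.3 and 58.2 CPM at 0h and 13.6, 57.7 and 20.4 CPM at 12 hours. Here libraries 1a and 2 were well below the 0h libraries and library 1b just below, and the log2 fold change was -0.96 (SE 0.53, adjusted p 0.30). The groups of 2 of 9 genes (Cdkn1b and Cdkn2d) did not overlap, beside 32.1% of all genes.

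Without library 1b at 12 hours, 5 of the 9 genes were called, where 25.3% of 15570 genes were called. These were Cdkn2d, Gadd45b (log2 fold change 2.42, SE 0.39, adjusted p 0.0044), Gadd45a (log2 fold change 1.46, SE 0.25, adjusted p 0.0055) and Mdm2 (log2 fold change 1.37, SE 0.31, adjusted p 0.0150), all higher, and Cdkn1b, lower (log2 fold change -2.0, SE 0.27, adjusted p 0.0022). Btg1 went the other way among the libraries. It had 3346, 2267 and 3047 CPM at 0h and 2649, 581 and 2555 CPM at 12 hours, so that libraries 1a and 2 were within the 0h range and library 1b was far below. Btg2, at 2683, 2403 and 2882 CPM at 0h and 2219, 719 and 3439 CPM at 12 hours, had library 1b far below and the other two on either side of the 0h range. In library 1b the 9 neutrophil markers summed to 165955 CPM, against 66303 and 79669 CPM in libraries 1a and 2 of that group and 43457 to 52571 CPM at 0h. This sum does not stand for each of its genes: S100a8 was at 12447 to 14683 CPM at 0h and 25241 to 82216 CPM at 12 hours in WT lung, and Csf3r was lower at 12 hours, at 7649 to 10844 and 1889 to 3392 CPM. The 12 markers of proliferating cells summed to 92.6, 48.1 and 109 CPM at 12 hours and 49.6 to 66.6 CPM at 0h, so that libraries 1a and 2 were above every 0h library and library 1b below. The 10 T and NK cell markers summed to 11.3 to 17.5 CPM at 12 hours and 17.8 to 23.4 CPM at 0h, without overlap. The part of these markers in the WT lung values was not tested.

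The remaining genes of WT lung, Ccng2 and Trp53, had overlapping groups. Ccng2 had 242, 147 and 223 CPM at 0h and 468, 154 and 216 CPM at 12 hours (log2 fold change 0.44, SE 0.47, adjusted p 0.62), with library 1a at 12 hours the highest, and without that library the direction turned (log2 fold change -0.32, SE 0.43, adjusted p 1.00). Trp53 had 14.8, 16.1 and 14.1 CPM at 0h and 14.3, 6.49 and 10.1 CPM at 12 hours (log2 fold change -0.55, SE 0.35, adjusted p 0.36), and without 12 hours library 1a the change was -1.02 (SE 0.38). The p53 gene itself was thus not called in any of the comparisons tested, and its lung levels lay between 5.64 and 16.1 CPM.

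**Figure D3:**
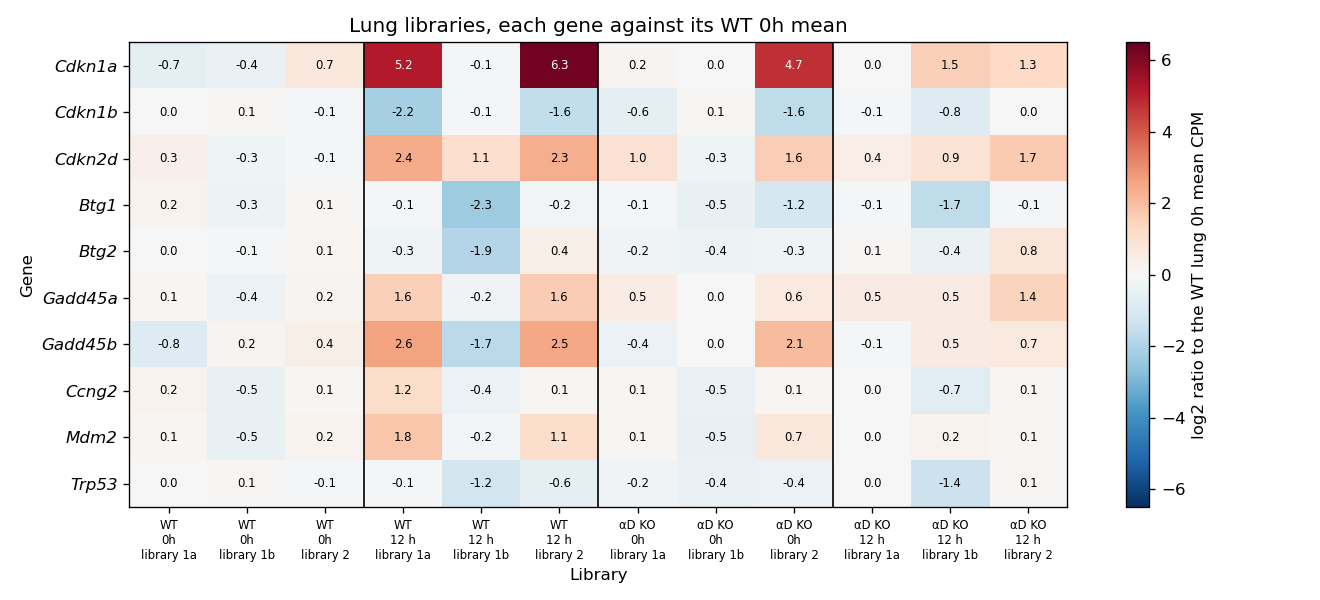
Log2 ratio of each lung library (columns) to the WT lung 0h mean CPM for the 10 genes (rows), with red above and blue below that mean. Cdkn1a, Cdkn2d and Gadd45b are high together in WT 12 hours libraries 1a and 2 and in αD KO 0h library 2, at 4.75 to 6.27, 1.62 to 2.44 and 2.06 to 2.63. Cdkn2d is also at 1.71 in αD KO 12 hours library 2, 1.09 in WT 12 hours library 1b and 1.01 in αD KO 0h library 1a.

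In αD KO lung no gene was called. Cdkn1a had 16.8, 14.6 and 396 CPM at 0h and 14.8, 42.8 and 35.9 CPM at 12 hours. At 0h library 2 was far above the other two, and at 12 hours no library came near it. The fitted log2 difference of -2.21 (SE 1.25) turned to 1.05 (SE 0.51) without that library. Gadd45b, at 209, 271 and 1151 CPM at 0h and 261, 403 and 436 CPM at 12 hours, turned in the same way, from -0.57 (SE 0.69, adjusted p 1.00) to 0.72 (SE 0.46, adjusted p 1.00).

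None of the 9 genes tested was called in αD KO lung, where 0.0% of 17939 genes were called, and their adjusted p was 1.00 each. At an unadjusted p under 0.05 there were 0 of the 9 and 72 (0.401%) of all genes, and DESeq2 called 0 genes. Without 0h library 2, and without 12 hours library 1b, the count was again 0 of 9. Cdkn2d had 356, 145 and 542 CPM at 0h and 239, 329.5 and 577 CPM at 12 hours, with overlap, and Cdkn1b had 41.0, 64.5 and 19.7 CPM at 0h and 58.0, 33.9 and 60.4 CPM at 12 hours, with overlap. In both genes the 0h library 2 was on the side of the WT 12 hour libraries, high for Cdkn2d and low for Cdkn1b. Btg1 had 2763, 2071 and 1288 CPM at 0h and 2782, 904 and 2759 CPM at 12 hours, and Btg2 had 2267, 2082 and 2196 CPM at 0h and 2840.4, 1995 and 4614 CPM at 12 hours. The 12 hour library 1b was the lowest of its group for both, as in WT lung.

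Gadd45a had 234, 165 and 263 CPM at 0h and 245, 246 and 457 CPM at 12 hours, and Mdm2 had 129.7, 90.0 and 198 CPM at 0h and 127, 146 and 129.5 CPM at 12 hours, both with overlap. The B cell markers separated the lung libraries as well, being low in all WT 12 hour libraries, in αD KO 0h library 2 and in αD KO 12 hours library 1b. Their summed level was 446, 329 and 49.99 CPM at 0h and 512, 75.0 and 500.1 CPM at 12 hours in αD KO lung, and it was 757, 486 and 586 CPM and 30.4, 45.7 and 102 CPM in WT lung. Counts were found for all 8 markers in each group. Their part in the lung values was not tested.

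Because Cdkn1a carried the widest differences, its promoters and the genes most like it are given. RefSeq lists a pair of Cdkn1a promoters, of which the upstream window holds a pair of p53 half-sites, at -73 and -51, and the other holds GC boxes at -104 and -46. The capitals mark the same motifs as above.
Cdkn1a upstream, chr17:29090729-29091028, plus strand: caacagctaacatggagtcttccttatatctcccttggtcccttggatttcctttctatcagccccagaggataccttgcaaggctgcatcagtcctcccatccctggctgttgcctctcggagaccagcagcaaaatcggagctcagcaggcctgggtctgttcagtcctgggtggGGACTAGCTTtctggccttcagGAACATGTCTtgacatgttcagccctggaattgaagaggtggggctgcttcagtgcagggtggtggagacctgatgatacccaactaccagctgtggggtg
Cdkn1a downstream, chr17:29093519-29093818, plus strand: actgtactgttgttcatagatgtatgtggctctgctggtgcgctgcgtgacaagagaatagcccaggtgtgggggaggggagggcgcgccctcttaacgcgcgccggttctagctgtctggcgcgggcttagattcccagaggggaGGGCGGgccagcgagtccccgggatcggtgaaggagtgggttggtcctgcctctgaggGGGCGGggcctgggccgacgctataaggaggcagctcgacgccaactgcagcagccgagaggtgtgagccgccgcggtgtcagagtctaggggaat

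The p53 half-site is in 5 of the 11 windows of these genes (Cdkn1a upstream, Cdkn2d, Gadd45a, Mdm2 and Trp53) and in 8.36% of the 32851 promoters. Half-sites are short and the window leaves out introns and distant enhancers, where p53 also binds.

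The 5 genes whose log2 CPM followed Cdkn1a most closely over the 24 libraries, among 13919 genes with a mean of at least 1 CPM, were Myo1c, Plk2, Per1, Atp1b3 and Rgcc, with Pearson's r of 0.94, 0.94, 0.94, 0.94 and 0.93. This is a description over libraries that share groups and depth. Plk2, a kinase gene that is a known p53 target, had 51.9, 79.7 and 88.5 CPM in WT lung at 0h and 2193, 59.8 and 1653 CPM at 12 hours, and 83.2, 60.3 and 1224 CPM and 87.4, 313 and 186 CPM in αD KO lung. Per1, a circadian clock gene, had 26.5, 36.7 and 61.1 CPM and 346, 24.8 and 315 CPM in WT lung, and 24.6, 36.2 and 158 CPM and 34.1, 62.2 and 69.2 CPM in αD KO lung. Both were high in the libraries in which Cdkn1a was high, which follows from their choice by correlation with it. The closest gene was Tgif1 for Gadd45b (r 0.96), Il1b for Btg2 (0.94), Ptgs2os2 for Btg1 (0.96), Pygo2 for Cdkn1b (0.96), Eif2b2 for Cdkn2d (0.95), Dync1li1 for Mdm2 (0.97), Atp6ap2 for Ccng2 (0.88), Plekho2 for Gadd45a (0.86) and Gpr34 for Trp53 (0.86).

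The next question was whether the genotypes differed at the same time in the same tissue. In blood at 0h no gene of the 10 was called, where 0.0115% of 17356 genes were (123 at an unadjusted p under 0.05, 6 called by DESeq2), and the groups of all 10 overlapped, while 3.35% of all genes had no overlap. The log2 differences, αD KO minus WT by label, ran from -0.85 (SE 0.90) for Cdkn1a to 0.57 (SE 0.44) for Cdkn2d. In blood at 12 hours 0 of 10 were called, where 0.0% of 12596 genes were (505 at an unadjusted p under 0.05, 16 called by DESeq2), and all 10 overlapped, while 9.76% of all genes had no overlap. For Cdkn1a the difference was 2.33 (SE 1.03, adjusted p 0.96) with and 0.21 (SE 0.67, adjusted p 1.00) without αD KO library 1a. For Btg1 it was 0.87 (SE 0.42, adjusted p 0.96) with and 0.25 (SE 0.32, adjusted p 1.00) without that library, and for Trp53 -0.69 (SE 0.54, adjusted p 0.96) with all libraries.

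In lung at 0h none of the 9 genes tested was called, where 0.0% of 18232 genes were (340 at an unadjusted p under 0.05, 6 called by DESeq2). Btg2 and Trp53 did not overlap, and the libraries labelled αD KO were lower for both, where 5.39% of all genes lay apart in that direction. Btg2 had 2683, 2403 and 2882 CPM in WT and 2267, 2082 and 2196 CPM in αD KO (log2 fold change -0.30, SE 0.29, adjusted p 0.98). Trp53 had 14.8, 16.1 and 14.1 CPM in WT and 12.9, 11.02 and 11.6 CPM in αD KO (log2 fold change -0.35, SE 0.24, adjusted p 0.98). Without αD KO library 2 the differences were -0.32 (SE 0.42, adjusted p 0.96) for Btg2 and -0.35 (SE 0.28, adjusted p 0.96) for Trp53. Markers of other cells also separated these groups. The 7 erythroid markers summed to 89.1 to 1069.9 CPM in WT and 2153 to 3248 CPM in αD KO, and the 8 B cell markers to 486 to 757 CPM and 49.99 to 446 CPM, and their part in the differences of Btg2 and Trp53 was not tested.

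The Cdkn1a and Gadd45b means at 0h in lung differed through library 2 of αD KO. For Cdkn1a the fitted difference was 3.22 (SE 1.31) with it and 0.06 (SE 0.47) without it. For Gadd45b the value was 0.94 (SE 0.69) with and -0.24 (SE 0.42) without it.

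In lung at 12 hours, the comparison by which the genes were chosen, the values are a description, from which no test result is drawn. Cdkn1a had 529.6, 13.4 and 1139.8 CPM in WT and 14.8, 42.8 and 35.9 CPM in αD KO. All 3 αD KO libraries were above WT library 1b and below WT libraries 1a and 2, and the fitted log2 difference was -4.06 (SE 1.27). Gadd45b, at 1706, 83.0 and 1595 CPM in WT and 261, 403 and 436 CPM in αD KO, had the same arrangement, with a difference of -1.53 (SE 0.92). The αD KO libraries had 127, 146 and 129.5 CPM of Mdm2 (log2 difference -0.94, SE 0.53), 239, 329.5 and 577 CPM of Cdkn2d (log2 difference -0.85, SE 0.54) and 58.0, 33.9 and 60.4 CPM of Cdkn1b (log2 difference 0.86, SE 0.58). All 10 overlapped, while 10.9% of all genes had no overlap. Since the choice of genes used this contrast, nothing is read from the count of calls, 0 of 10 beside 0.0% of 16764 genes (1390 at an unadjusted p under 0.05, 192 called by DESeq2). Without WT library 1b the difference was -4.66 (SE 0.57) for Cdkn1a, -2.10 (SE 0.43) for Gadd45b, 1.69 (SE 0.44) for Cdkn1b, -1.36 (SE 0.39) for Mdm2 and -1.19 (SE 0.49) for Cdkn2d. Without αD KO library 1b it was -4.39 (SE 1.63) for Cdkn1a, -1.65 (SE 1.14) for Gadd45b, 1.08 (SE 0.59) for Cdkn1b, -1.05 (SE 0.65) for Mdm2 and -0.80 (SE 0.64) for Cdkn2d.

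Lung and blood neutrophils were also compared at each time. Btg2 had 2012, 1094 and 1651 CPM in WT blood and 2683, 2403 and 2882 CPM in WT lung, and lung was higher without overlap (log2 fold change 0.70, SE 0.29, adjusted p 1.00), as for 4.03% of all genes in that direction. None of the 9 genes was called, where 0.0% of 15967 genes were (406 at an unadjusted p under 0.05, 47 called by DESeq2). In αD KO at 0h, Btg2 (1423, 1486 and 993 CPM in blood) and Gadd45b (138, 86.3 and 86.5 CPM in blood) were higher in lung without overlap, as were 3.61% of all genes, and none of the 9 was called, where 0.0% of 19000 genes were (553 at an unadjusted p under 0.05, 108 called by DESeq2). The Gadd45b difference was 2.40 (SE 0.72, adjusted p 1.00) with and 1.25 (SE 0.39, adjusted p 1.00) without lung library 2, and that of Btg2 was 0.72 (SE 0.33, adjusted p 1.00) with and 0.81 (SE 0.46, adjusted p 1.00) without it. At 0h the summed platelet markers were lower in lung than in blood without overlap in both genotypes (8.31 to 30.7 against 51.6 to 131 CPM in WT, 7.89 to 19.8 against 28.5 to 654 CPM in αD KO), as were the T and NK cell markers in WT (17.8 to 23.4 against 26.1 to 30.9 CPM). The 11 lung structural markers were higher in lung without overlap in αD KO (107 to 1110.5 against 25.4 to 36.3 CPM), and the part of these markers in the tissue differences was not tested.

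At 12 hours in WT, Btg1, Btg2 and Gadd45a were higher in every lung library than in every blood library, as were 8.57% of all genes. The log2 differences, lung minus blood, were 2.54 (SE 0.55, adjusted p 0.12) for Btg1, 2.06 (SE 0.53, adjusted p 0.14) for Btg2 and 1.81 (SE 0.45, adjusted p 0.14) for Gadd45a. Gadd45b had the largest difference of the 9 genes tested, 3.86 (SE 0.98, adjusted p 0.14), with lung library 1b inside the blood range. None of the 9 was called, where 0.0442% of 13590 genes were, although 4 of the 9 (and 18.1% of all genes) had an unadjusted p under 0.05. By DESeq2 4 of the 9 were called, beside 8.28% of all genes. Without lung library 1b, 4 of 9 were called, where 20.2% of 14435 genes were, namely Btg1 (log2 fold change 2.93, SE 0.31, adjusted p 0.0021), Btg2 (log2 fold change 2.43, SE 0.33, adjusted p 0.0041), Gadd45a (log2 fold change 2.16, SE 0.26, adjusted p 0.0029) and Gadd45b (log2 fold change 4.39, SE 0.49, adjusted p 0.0027). For Cdkn1a the fitted difference was 5.36 (SE 1.25) with and 5.92 (SE 0.44) without lung library 1b. The lung structural markers summed to 74.9 to 424 CPM in these lung libraries and to 18.7 to 21.1 CPM in blood, without overlap, and their part in the tissue differences was not tested.

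At 12 hours in αD KO, Btg2 and Gadd45b were higher in every lung library, with log2 differences of 2.42 (SE 0.48, adjusted p 0.0920) and 1.88 (SE 0.38, adjusted p 0.0920). Cdkn2d (788, 635 and 651 CPM in blood) and Mdm2 (242, 162 and 157 CPM in blood) were lower in every lung library, at -0.87 (SE 0.41, adjusted p 0.25) and -0.49 (SE 0.33, adjusted p 0.39). Groups of 4 of the 9 genes did not overlap, beside 27.8% of all genes, and none of the 9 was called, where 0.0548% of 14592 genes were, although 3 of the 9 (and 22.2% of all genes) had an unadjusted p under 0.05. By DESeq2 3 of the 9 were called, beside 10.2% of all genes. Without lung library 1b, Btg1 (log2 fold change 2.25, SE 0.49, adjusted p 0.0260), Btg2 (log2 fold change 2.65, SE 0.44, adjusted p 0.0100) and Gadd45b (log2 fold change 1.79, SE 0.39, adjusted p 0.0251) were called, where 11.2% of 15144 genes were. The differences of Cdkn2d and Mdm2 were then -0.79 (SE 0.44) and -0.58 (SE 0.35). The lung structural markers summed to 57.7 to 192 CPM in lung and 10.3 to 25.9 CPM in blood, and the monocyte and macrophage markers to 858 to 1274 CPM and 549.7 to 744 CPM, both without overlap, and their part was not tested. The comparisons of a tissue share their control libraries with those of time, so the values stand side by side and are not independent.

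Whether the change at 12 hours differed between lung and blood in WT was tested as an interaction, and none of the 9 genes passed, where 0.0% of 23497 genes passed (1290 at an unadjusted p under 0.05, 107 by DESeq2). The difference, lung minus blood, was 2.17 (SE 0.83, adjusted p 0.88) for Btg1, 2.88 (SE 1.25, adjusted p 0.88) for Gadd45b and 1.78 (SE 0.71, adjusted p 0.88) for Gadd45a. Without lung 12 hours library 1b these were 2.58 (SE 0.58, adjusted p 0.0722), 3.40 (SE 0.77, adjusted p 0.0748) and 2.15 (SE 0.48, adjusted p 0.0711), and without all libraries 1b they passed together with Btg2, where 7.41% of 15750 genes passed.

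The rest of the pathway was followed in 40 other p53 targets, 20 p53 regulators (19 matched by symbol) and 36 other cell cycle arrest genes. The lists were chosen with earlier results of these data known, so their shares called are a description. In WT blood, 3 of the 37 other targets tested fell and 0 rose. Pmaip1, which encodes the cell death protein Noxa, was at 194 ± 38.3 CPM at 0h and 34.2 ± 15.6 CPM at 12 hours (log2 fold change -2.55, adjusted p 0.0083). Bbc3, which encodes the cell death protein Puma, was at 16.6 ± 2.29 CPM at 0h and 5.39 ± 0.943 CPM at 12 hours (log2 fold change -1.68, adjusted p 0.0136). Xpc, a gene of DNA repair, was at 148 ± 32.7 CPM at 0h and 44.8 ± 20.4 CPM at 12 hours (log2 fold change -1.77, adjusted p 0.0279). Of 18 regulators Trp53bp1, whose protein binds p53 and damaged DNA, fell (log2 fold change -1.10) and 0 rose, and of 32 arrest genes Lin54, whose protein is part of a complex that represses cell cycle genes, rose (log2 fold change 1.26) as did Cgrrf1, a ring finger gene linked to growth control (log2 fold change 1.61), and 0 fell. The share of each list called was 8.11%, 5.56% and 6.25%, below the 13.5% of all genes. The medians of the lists were -0.12, -0.26 and -0.31, beside -0.15 over all genes. All 6 of these calls remained with the files of sample 1 summed, where 15.9% of 17303 genes were called, but the targets were then called in both directions, 4 higher and 4 lower, as were the regulators (1 and 1) and the arrest genes (2 and 2). Without 0h library 1b, 2 targets were called higher and 6 lower, 1 regulator each way, and 2 arrest genes higher and 3 lower, where 18.4% of all genes were called. No gene of the lists was called without library 1a or 2 of either time.

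In αD KO blood, Pmaip1 again fell, at 181 ± 23.4 CPM at 0h and 33.5 ± 21.2 CPM at 12 hours (log2 fold change -2.49, adjusted p 0.0227), and of the 36 other targets tested Sfn rose. Sfn, which encodes a protein of a family that holds phosphorylated partners, was at 2.58 ± 0.284 CPM at 0h and 9.30 ± 2.58 CPM at 12 hours (log2 fold change 1.79, adjusted p 0.0445). Perp, which encodes a cell adhesion protein, was also called higher, but it had 14, 0 and 1 counts at 0h against 279, 43 and 96 at 12 hours, so it passed the filter on low counts through the 12 hour libraries alone and its fitted fold change is not given. Of 17 regulators 0 were called, and of 29 arrest genes only Cgrrf1 rose (log2 fold change 1.64). The share called was 0.0% of the regulators and 3.45% of the arrest genes, beside 8.75% of all genes, and none is given for the targets, whose calls include Perp. With the files of sample 1 summed Sfn was not called, and Pmaip1 and Cgrrf1 were, where 3.84% of 16521 genes were called. Without 0h library 1a, 0h library 2 or 12 hours library 2 no gene of these lists was called, and without 0h library 1b 1 target was, lower. Without αD KO 12 hours library 1a, 1 target was called, lower, and no regulator or arrest gene, where 1.54% of 16872 genes were called. Without αD KO 12 hours library 1b, 6 targets and 3 arrest genes were called higher, and 1 target, 1 regulator and 1 arrest gene lower, where 8.74% of 16186 genes were called.

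In WT lung 5 of the 37 other targets tested rose and 0 fell, a share of 13.5%, beside 9.02% of all genes. Since the list was chosen with earlier results known, nothing is read from this share. Perp was at 0.819 ± 0.235 CPM at 0h and 17.6 ± 10.3 CPM at 12 hours (log2 fold change 4.41, adjusted p 0.0082) and Ddit4, a stress gene that restrains growth signalling, was at 0.827 ± 0.232 CPM at 0h and 16.8 ± 11.4 CPM at 12 hours (log2 fold change 4.31, adjusted p 0.0139). Sfn was at 2.08 ± 0.675 CPM at 0h and 40.2 ± 35.5 CPM at 12 hours (log2 fold change 4.21, adjusted p 0.0409), and Fdxr, which encodes a mitochondrial electron carrier enzyme, was at 4.67 ± 0.464 CPM at 0h and 18.6 ± 12.0 CPM at 12 hours (log2 fold change 1.97, adjusted p 0.0414). The raw counts of Sfn were 76, 24 and 53 at 0h and 752, 22 and 1344 at 12 hours, so its rise was in libraries 1a and 2 and not in library 1b. Plk2 was at 73.4 ± 19.1 CPM at 0h and 1302 ± 1109 CPM at 12 hours (log2 fold change 4.12, adjusted p 0.0495), with the libraries given above. Of 18 regulators 0 were called, and of 32 arrest genes Cgrrf1 rose (log2 fold change 1.63) and 0 fell. The medians were -0.04, 0.01 and 0.41, beside 0.03 over all genes. Without 0h library 1a, 0h library 2 or 12 hours library 1a no gene of the whole table was called, so all 6 of these calls were lost, as they were without 12 hours library 2, and without 0h library 1b 2 targets were called higher. With the files of sample 1 summed 5 of the 6 remained, Fdxr being lost, where 12.3% of 19014 genes were called. Without 12 hours library 1b, 9 targets rose and 3 fell, 3 regulators rose, and 10 arrest genes rose and 4 fell, where 25.3% of all genes were called. In the other 9 comparisons of groups, 0 genes of the 3 lists were called by edgeR with all libraries. Without WT lung 12 hours library 1b, lung against blood at 12 hours in WT had 8 targets, 2 regulators and 7 arrest genes called higher in lung and 4, 1 and 1 called lower, where 20.2% of all genes were called, and αD KO against WT lung at 12 hours had 3 targets and 2 arrest genes called lower, where 1.11% of 18849 genes were called. Without αD KO lung 12 hours library 1b, lung against blood in αD KO had 2 targets and 2 arrest genes called higher and 4 and 1 called lower, where 11.2% of all genes were called. Over all 12 comparisons of groups edgeR called 16 genes of the lists, Perp in αD KO blood among them, and DESeq2 called 74, counting a gene once in each comparison.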

How the data were processed

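Neutrophil RNA of 8 groups (genotype, tissue, time) was analysed from 24 count files of 16 samples. According to the methods of the study, full-length cDNA was amplified with a low-input kit, libraries were made by tagmentation, and reads were trimmed (Trimmomatic 0.36) and mapped with STAR 2.5.2b. The submitters' processing notes name the builds GRCm38 and mm10. Reads mapped uniquely within exons were counted, and the authors deposited these counts per gene without normalization or filter; the strand setting is not given in the sources used here. The reads carry no molecular identifiers, so amplified copies of a molecule are counted as separate reads.

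Symbols came from the reference table (48970 of 49315 genes named), and file positions equalled GENCODE vM21 for 44737 genes. They did not for Cdkn1a, Btg1, Gadd45b and Mdm2, and the gene positions given above are those of the count files. CPM values use TMM factors over 24 libraries, and log2 CPM a prior count of 1. The test was edgeR's quasi-likelihood F test (two-sided, TMM, filterByExpr) on the libraries of the groups compared, with Benjamini-Hochberg adjustment over all genes tested, and for interactions the adjusted p alone decided. Each SE was computed from that test, as the absolute log2 fold change over the square root of the F statistic. Cdkn1a was part of the lung fits, and its test results there are not used. It was tested on simulated counts. R 4.3.3, edgeR 4.0.16, limma 3.58.1, DESeq2 1.42.0, Python 3.11.15, pandas 2.3.3, numpy 2.4.6 and matplotlib 3.10.9 were used. The members, lists and markers were chosen with earlier results of these data known, and the naming rule covers the 10 genes, called list genes and the genes most like them.

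The labels state no pairing. Libraries of the same number deviated together (correlation across genes of the deviations from the group means above 0.1 for every number) in 6 of 12 comparisons: WT blood over time (0.458, 0.589 and 0.118), αD KO lung over time, αD KO against WT blood at 0h, WT lung against blood at both times and αD KO lung against blood at 12 hours. The alternatives tried were DESeq2 (the tool named in the methods of the study), RLE normalization, dropping the filter on low counts, fitting all 8 groups together, summing both files of sample 1, the library number as a block, no libraries 1b, and each library left out in turn.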

Additional observations from a re-analysis of the deposited data

How the results depend on the processing

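Depth was 5753476 to 29984954 counts per library and the lowest count of the 10 genes in a library was 34. The labels give 2 samples per group, so the fit with summed files has n = 2, and the fits on separate files count libraries. RLE normalization moved the median of all genes by over 0.1 only in the tissue by time interaction (0.17), and among the 10 genes it changed 1 call, adding Cdkn2d in WT blood. None of the called values of the 10 genes reversed its direction under these alternatives.

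The counts of genes called, of 10 in blood and 9 in comparisons with lung, were as follows where they moved by over 1.5 times, with the share of all genes called in the same fit in parentheses. All 10 are counted in αD KO against WT lung at 12 hours, by which the genes were chosen, and nothing is read from its counts. In WT blood, 3 (13.5%) became 0 without the filter on low counts (2.25%), 1 with all 8 groups in the fit (4.12%), 5 with the files of sample 1 summed (15.9%), 6 without libraries 1b (23.1%) and 0 to 5 with each library left out, while DESeq2 (21.4%) and RLE normalization (14.9%) each gave 4. In αD KO blood, 1 (8.75%) became 2 without the filter (4.05%), 3 by DESeq2 (17.6%), 0 with all 8 groups (0.236%), 0 with summed files (3.84%), 2 with the replicate block (10.7%) and 0 to 1 with each library left out. The 1 gene was Btg2, not Btg1, without libraries 1b and without 12 hours library 1b alone. In WT lung, 1 (9.02%) became 0 without the filter (3.15%), 0 with all 8 groups (1.65%), 3 with summed files (12.3%), 5 without libraries 1b (37.2%) and 0 to 5 with each library left out. In αD KO against WT blood at 12 hours, 0 (0.0%) became 1 without the filter (0.207%), and in lung at 12 hours 0 (0.0%) became 1 without the filter (0.489%), 1 by DESeq2 (1.15%), 4 without libraries 1b (30.1%) and 0 to 1 with each library left out (1 without WT library 1b). For WT lung against blood at 12 hours, 0 (0.0442%) became 3 without the filter (1.59%), 4 by DESeq2 (8.28%), 4 with summed files (4.47%), 4 without libraries 1b (28.2%) and 0 to 4 with each library left out (4 without lung library 1b). In αD KO lung against blood, 0 (0.0%) became 1 by DESeq2 (0.568%) at 0h, and at 12 hours 0 (0.0548%) became 3 without the filter (3.13%), 3 by DESeq2 (10.2%), 3 with summed files (8.27%), 5 without libraries 1b (34.3%) and 0 to 3 with each library left out (3 without lung library 1b, 1 without blood library 1b). For the tissue by time interaction in WT, 0 (0.0%) became 4 without libraries 1b (7.41%). The 3 gene lists had 16 calls (Perp in αD KO blood included), against 39 without the filter, 74 by DESeq2, 5 with all 8 groups, 44 with summed files, 142 without libraries 1b and 10 to 67 with each library left out (67 without WT lung 12 hours library 1b). The cause of these moves was not tested.

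With the library number as a block (the pairing by number), WT blood had 4 genes called, WT lung 1, αD KO blood 2 (Btg1 and Btg2), the other comparisons 0 and the 3 lists 17. Where the numbers deviated together it added Cdkn2d in WT blood and changed no other call of the 10 genes. Over all genes, calls ranged under the alternatives from 2 to 3201 in WT blood (main 1975), from 64 to 2496 in αD KO blood (1238), from 0 to 5299 in WT lung (1340), from 0 to 23 in αD KO lung (0), from 0 to 6 in blood (2) and in lung (0) between genotypes at 0h, from 0 to 80 in blood (0) and 0 to 4686 in lung (0) between genotypes at 12 hours, from 0 to 47 in WT (0) and 0 to 108 in αD KO (0) between tissues at 0h, and from 0 to 3779 in WT (6) and 0 to 4881 in αD KO (8) between tissues at 12 hours. The interactions had 0 to 1 (genotype by time) and 0 to 1167 (tissue by time) against 0.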
